A study of Mus musculus with 9 samples.

Results

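The 10 genes described here mark or act in liver sinusoidal endothelial cells, the fenestrated cells that line the blood channels between plates of hepatocytes. They are Stab2, Lyve1, Clec4g, Cdh5, Kdr, Maf, Gna14, Wnt2, Rspo3 and Bmp2, taken by symbol as a named list of 10 from 22701 genes in the table, and each symbol matched 1 gene. All 10 had a mean of at least 10 normalised reads and were among the 13845 genes tested. The RNA came from whole liver of 9 mice, all 5 weeks old, whose background is given as C57BL/6 and 129svPas. The series title concerns HP1 proteins as tumour suppressors of mouse liver. HP1α, HP1β and HP1γ, encoded by Cbx5, Cbx1 and Cbx3, are chromatin proteins that bind methylated histone H3. HP1ag_KO livers (3) carried HP1a-/- and a liver deletion of HP1γ, and the single HP1ab_KO liver carried HP1a-/- and a liver deletion of HP1β. HP1a_KO livers (2) carried HP1a-/- alone, and WT livers (3) carried none of these alleles, so all 6 mutant livers shared the HP1α mutation. The labels place the HP1β and HP1γ deletions in the liver and name no driver, so whether sinusoidal endothelial cells lost these genes is not given in the sources used here. Each library is 1 numbered animal, with no litter or batch named.

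Sinusoidal endothelium differs from other vessels in its open pores, its lack of a continuous basement membrane and its heavy traffic of scavenger receptors that clear waste from blood. It also instructs its neighbours. Endothelial cells around the central vein secrete WNT2 and R-spondin 3, which keep β-catenin active in pericentral hepatocytes, and sinusoidal cells secrete BMP2 and BMP6, which set hepcidin in hepatocytes. Stabilin-2 (Stab2), LYVE1 and CLEC4G bind hyaluronan or glycans at the cell surface. VE-cadherin (Cdh5) joins endothelial cells to each other, and VEGFR2 (Kdr) is the main signalling receptor for VEGF-A. Maf encodes a basic leucine zipper transcription factor and Gna14 a G protein alpha subunit of the Gq class. Maf and Lyve1 are also used by macrophages, whereas Cdh5 and Kdr are used by endothelium of all vessels.

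The promoters of the members whose HP1a_KO livers both lay below every WT liver, Gna14 and Wnt2, are shown with those of Stab2 and Kdr, whose levels varied least between livers, and of Clec4g, which held the most motif matches. RefSeq windows (build GRCm38.p6) from 250 bases before to 50 bases after the transcription start were at hand for these 5 of the 10 members. The Gna14 window ends at 16435716, before the start of Gna14 in the GENCODE coordinates given below. RefSeq and GENCODE thus place the start of this gene differently. Capitals mark a match to AGGAAG, a form of the motif of ETS factors, which are widespread in endothelium. Other forms of this motif were not searched, so a window without capitals may still hold them.
Gna14 (chr19:16435417-16435716, plus strand): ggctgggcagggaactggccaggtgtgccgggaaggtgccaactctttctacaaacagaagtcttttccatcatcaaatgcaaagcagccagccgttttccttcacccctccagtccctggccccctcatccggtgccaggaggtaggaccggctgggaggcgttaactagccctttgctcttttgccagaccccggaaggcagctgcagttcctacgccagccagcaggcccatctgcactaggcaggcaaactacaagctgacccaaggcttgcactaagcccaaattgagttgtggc
Wnt2 (chr6:18030396-18030695, minus strand): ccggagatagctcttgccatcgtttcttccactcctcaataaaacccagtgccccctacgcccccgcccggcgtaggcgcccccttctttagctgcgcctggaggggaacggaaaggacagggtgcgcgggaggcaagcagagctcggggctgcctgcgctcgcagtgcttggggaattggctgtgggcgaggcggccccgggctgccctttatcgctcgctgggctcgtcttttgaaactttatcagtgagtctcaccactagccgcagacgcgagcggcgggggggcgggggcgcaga
Stab2 (chr10:87007893-87008192, minus strand): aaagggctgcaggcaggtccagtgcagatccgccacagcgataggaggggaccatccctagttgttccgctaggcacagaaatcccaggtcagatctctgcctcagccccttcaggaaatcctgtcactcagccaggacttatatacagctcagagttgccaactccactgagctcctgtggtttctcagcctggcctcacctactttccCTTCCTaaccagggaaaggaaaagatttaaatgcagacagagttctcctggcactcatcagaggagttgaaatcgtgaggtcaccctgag
Kdr (chr5:75978406-75978705, minus strand): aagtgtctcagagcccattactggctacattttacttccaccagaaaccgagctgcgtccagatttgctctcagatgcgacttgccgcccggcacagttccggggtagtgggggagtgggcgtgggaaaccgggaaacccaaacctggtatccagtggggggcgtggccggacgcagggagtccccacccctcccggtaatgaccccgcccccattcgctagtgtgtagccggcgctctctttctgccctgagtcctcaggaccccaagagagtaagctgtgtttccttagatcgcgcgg
Clec4g (chr8:3720602-3720901, minus strand): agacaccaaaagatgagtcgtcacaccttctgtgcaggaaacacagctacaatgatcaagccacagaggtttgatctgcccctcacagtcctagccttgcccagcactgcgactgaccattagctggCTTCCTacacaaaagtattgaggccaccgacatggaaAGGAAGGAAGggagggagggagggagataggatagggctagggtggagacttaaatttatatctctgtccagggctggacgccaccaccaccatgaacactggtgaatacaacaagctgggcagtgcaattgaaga
These windows differ in base composition. Wnt2 and Kdr held 27 and 19 CpG dinucleotides, Gna14 held 7, and Stab2 and Clec4g held 4 each, against a median of 7 over 32851 windows of the same length. AGGAAG, on either strand, was in 2 of the 5 windows, once in Stab2 and 3 times in Clec4g, 2 of them overlapping by 2 bases. It was in 35.4% of all windows. AGATAA, a form of the motif of GATA factors, was in 0 of the 5 windows and in 11.2% of all. TGCTGA, a form of the half-site bound by MAF factors, was in 0 of the 5 and in 19.5% of all. Other forms of these motifs, such as AGATAG in the Wnt2 and Clec4g windows, were not counted. These letters are a description of the windows and not of binding.

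Libraries held 16266423 to 36161177 reads in genes, the lowest being HP1a_KO replicate 1 and the next lowest 26375545. Values are normalised reads, that is counts divided by 1 size factor per library. Cbx5 was at 663, 813 and 753 in HP1ag_KO livers, 663 in the HP1ab_KO liver and 576 and 501 in HP1a_KO livers, against 1542, 1167 and 997 in WT livers, with no overlap. Cbx3 was at 380.0, 326 and 343 in HP1ag_KO livers, against 536, 639 and 641 in WT livers, and Cbx1 at 217 in the HP1ab_KO liver and 457 and 771 in HP1a_KO livers, against 1082, 868 and 803 in WT livers. In whole-liver RNA, fewer endothelial cells and less RNA per endothelial cell cannot be told apart. Alb, the albumin gene of hepatocytes, lay between 1726289.9 and 2550225 in every library. Antisense genes overlap Stab2, Clec4g, Cdh5, Maf and Rspo3, and those in the table had means of at most 3.56 normalised reads. Antisense genes over Cdh5 and Rspo3, and some over Stab2, are not in the table, so their levels are not known. The antisense gene over Rspo3 shares up to 404 bases of an exon with it. The p-values set a difference between groups against the spread between animals of the same group. That spread is estimated partly from other genes, and the single HP1ab_KO liver adds nothing to it.

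Per kilobase of merged exons, the members spanned a wide range of levels in WT livers. The lectin receptor gene Clec4g was highest at 607 normalised reads per kb (428 to 719.6 over the 3 WT livers), followed by Stab2 at 494 (466 to 534), whose range lay within that of Clec4g. Kdr came next at 297 per kb (272 to 313) and Cdh5 at 219 (196 to 231). Bmp2 at 188 (156 to 225), Maf at 153 (145 to 159) and Lyve1 at 135 (104 to 159) were neighbours whose ranges overlapped. Wnt2 at 66.1 (50.5 to 78.1) and Rspo3 at 51.9 (34.0 to 62.3) overlapped too, and Gna14 was lowest at 26.2 (22.4 to 31.6). In HP1a_KO livers Clec4g and Stab2 were nearly level, at 508 and 504 per kb, and Cdh5 at 303 stood beside Kdr at 297.

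**Figure D1:**
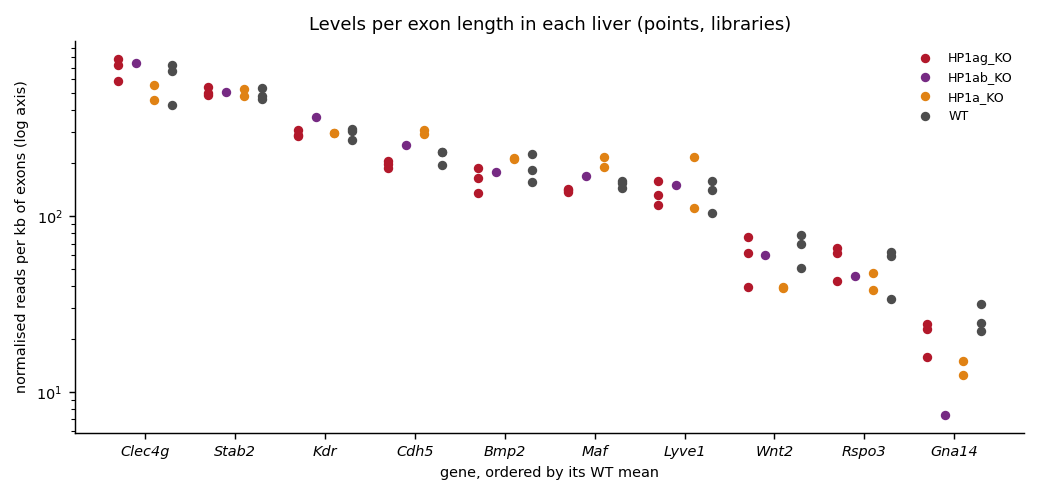
Normalised reads per kb of merged exons (log axis) for each of the 10 genes, ordered by WT mean, with 1 point per library and groups from HP1ag_KO to WT. Clec4g has the highest and Gna14 the lowest mean in every group, and Gna14 spreads most between groups.

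The spread over the 9 livers differed as much between members. Stab2 and Kdr had coefficients of variation of 5.32% and 8.64%, and their highest libraries were 1.17 and 1.34 times their lowest. Bmp2, Maf and Cdh5 varied by 15.9%, 16.6% and 18.8%. Clec4g, Rspo3, Lyve1 and Wnt2 varied by 20.5%, 23.2%, 23.7% and 27.5%. Gna14 varied most, by 37.9%, with its highest library 4.25 times its lowest. Gna14, Wnt2 and Rspo3 also rested on the fewest reads, from 28 to 114, 48 to 188 and 80 to 225 per library, so counting error is larger for them than for Stab2 with 2517 to 5554.

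**Figure D2:**
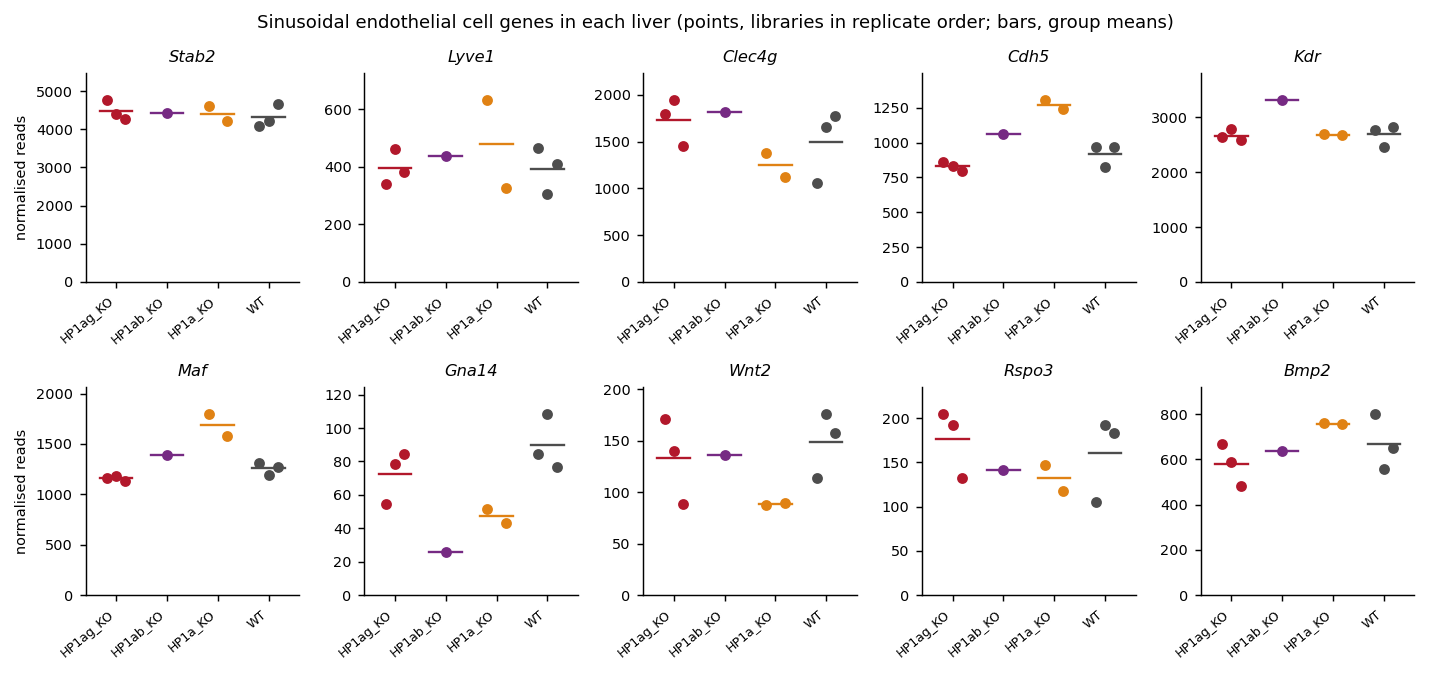
Normalised reads of the 10 genes in each liver, with points for libraries in replicate order and bars for group means, groups from HP1ag_KO (left) to WT (right), each axis starting at 0. Cdh5 and Maf stand highest in HP1a_KO livers, Gna14 lowest in the HP1ab_KO liver, and Stab2 and Kdr stay level.

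The first question is whether the sinusoidal genes as a group differed from WT when HP1α was missing, alone or with HP1γ or HP1β. They did not shift together. Their median log2 difference was -0.062 in HP1ag_KO (4 of 10 higher), 0.093 in HP1ab_KO (6 of 10 higher) and 0.015 in HP1a_KO (6 of 10 higher). Over all genes tested these medians were -0.011, -0.00338 and -0.00164, on the scale of log2(value + 1) used for every difference here, with 47.9%, 49.4% and 49.7% of genes higher by any amount. The summed value of the 10 genes was 11403 to 12645 in HP1ag_KO livers, 13396 in the HP1ab_KO liver and 12148 to 13469 in HP1a_KO livers, against 11697 to 12981 in WT livers. The HP1ag_KO, HP1a_KO and WT ranges overlap, and the HP1ab_KO liver lies within the HP1a_KO range and above the WT range.

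Counts of single members follow. limma with Benjamini-Hochberg adjustment over all genes called 0 of the 10 members in each of the 5 comparisons made, as did edgeR. The background of both tools was 0.0% of genes in each comparison. In HP1ag_KO against WT, 0 members had an unadjusted limma p under 0.05, against 7.58% of all genes, and DESeq2 called 0, against 0.715%. In HP1ab_KO against WT, 2 members (Gna14 and Kdr) had such a p, against 3.7% of genes, and DESeq2 called 0, against 0.0795%. In HP1a_KO against WT, 4 members (Cdh5, Maf, Gna14 and Wnt2) had one, against 10.1%, and DESeq2 called 0, against 0.643%. In HP1ag_KO against HP1a_KO, 2 members (Cdh5 and Maf) had one, against 16.2%, and DESeq2 called both lower, against 3.32% of genes called in all and 1.61% called lower. Over all 6 HP1α-null livers against WT, Gna14 alone had one, against 6.31%, and DESeq2 called 0, against 0.332%. The comparisons with WT share the WT livers, and the lone HP1ab_KO library takes its spread from the other groups, so its differences have no replicate check.

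**Figure D3:**
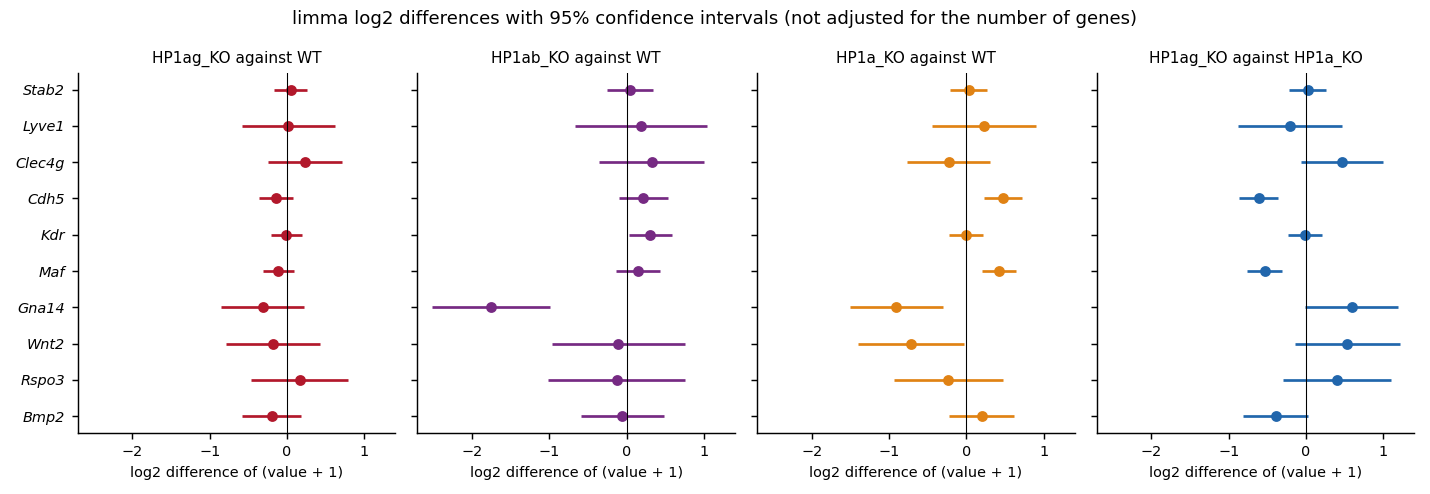
limma log2 differences of (value + 1) for the 10 genes in 4 comparisons, with points for estimates and lines for 95% confidence intervals that are not adjusted for the number of genes tested. The intervals of Cdh5 and Maf lie above 0 in HP1a_KO against WT and below 0 in HP1ag_KO against HP1a_KO, and those of Stab2 are narrow and include 0 throughout.

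Among the scavenger and lectin receptors, Stab2 (ENSMUSG00000035459, chromosome 10, 86841198 to 87008025, build GRCm38 as for all genes here), which takes up hyaluronan from blood, was level. It had 4755, 4399 and 4264 normalised reads in HP1ag_KO livers, 4438 in the HP1ab_KO liver, 4618 and 4206 in HP1a_KO livers and 4077, 4227 and 4673 in WT livers. The HP1ag_KO, HP1a_KO and WT livers overlapped, and the HP1ab_KO value lay among the WT values. The log2 difference was 0.049 ± 0.092 SE in HP1ag_KO and 0.029 ± 0.10 SE in HP1a_KO against WT (limma adjusted p = 0.921 and 0.935). The 95% confidence interval of the ratio, which is not adjusted for the number of genes, was 0.893 to 1.20 in HP1ag_KO and 0.866 to 1.20 in HP1a_KO.

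Lyve1 (ENSMUSG00000030787, chromosome 7, 110850607 to 110863239) encodes a hyaluronan receptor that sinusoidal endothelium shares with lymphatic endothelium. It had 339.9, 461 and 383 normalised reads in HP1ag_KO livers, 439 in the HP1ab_KO liver, 631 and 326 in HP1a_KO livers and 465, 305 and 409 in WT livers. The pair of HP1a_KO livers held the highest value of all 9 and a value below 2 of the 3 WT livers. The log2 difference in HP1a_KO of 0.23 ± 0.29 SE (limma adjusted p = 0.798) turned to -0.25 without HP1a_KO replicate 1, so its direction rests on 1 library. In HP1ag_KO it was 0.017 ± 0.26 SE (limma adjusted p = 0.992).

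Clec4g (ENSMUSG00000074491, chromosome 8, 3707064 to 3720651) encodes LSECtin, a C-type lectin of sinusoidal endothelium. It had 1791, 1940.3 and 1455 normalised reads in HP1ag_KO livers, 1819 in the HP1ab_KO liver, 1379.7 and 1121 in HP1a_KO livers and 1054, 1654 and 1772 in WT livers. All HP1ag_KO values and the HP1ab_KO value lay above both HP1a_KO values, while the WT livers spanned from the lowest value of all 9 to the level of HP1ag_KO. HP1ag_KO stood 0.46 ± 0.23 SE above HP1a_KO on the log2 scale (limma adjusted p = 0.37), and the differences from WT were 0.24 ± 0.21 SE in HP1ag_KO and -0.23 ± 0.23 SE in HP1a_KO (limma adjusted p = 0.811 and 0.742). WT replicate 1 was the low WT liver for Clec4g, and the same library was the lowest WT liver for Wnt2 and Rspo3 and the highest WT liver for Bmp2 and Lyve1.

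VE-cadherin and VEGFR2 behaved differently from each other. Cdh5 (ENSMUSG00000031871, chromosome 8, 104101625 to 104144511) had 862, 836 and 795 normalised reads in HP1ag_KO livers, 1064 in the HP1ab_KO liver, 1303 and 1241 in HP1a_KO livers and 969, 824 and 969 in WT livers. Both HP1a_KO livers were above every other liver, the HP1ab_KO liver came next, and the HP1ag_KO livers reached into the WT range from below. Cdh5 was 1.39 times WT in HP1a_KO, a log2 difference of 0.47 ± 0.11 SE (limma adjusted p = 0.397, DESeq2 adjusted p = 0.0632), which ran from 0.39 to 0.51 when 1 library at a time was left out (limma adjusted p = 0.202 to 0.985). HP1ag_KO stood at 0.653 of HP1a_KO, -0.61 ± 0.11 SE on the log2 scale. DESeq2 called this difference (adjusted p = 0.00159), limma did not (adjusted p = 0.127), and it ran from -0.65 to -0.58 with 1 library left out. Cdh5 was -0.14 ± 0.10 SE in HP1ag_KO against WT (limma adjusted p = 0.75).

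Kdr (ENSMUSG00000062960, chromosome 5, 75932827 to 75978458) had 2633, 2779 and 2583 normalised reads in HP1ag_KO livers, 3306 in the HP1ab_KO liver, 2692 and 2674 in HP1a_KO livers and 2774, 2459.8 and 2825 in WT livers. HP1ag_KO, HP1a_KO and WT livers shared 1 range, and the HP1ab_KO liver was the highest of the 9. The log2 difference was -0.00944 ± 0.086 SE in HP1ag_KO and 0.000669 ± 0.10 SE in HP1a_KO against WT (limma adjusted p = 0.986 and 0.998), with intervals of the ratio from 0.867 to 1.14 and 0.859 to 1.17. In the HP1ab_KO liver Kdr was 1.23 times WT (0.30 ± 0.12 SE, limma adjusted p = 0.999).

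Maf (ENSMUSG00000055435, chromosome 8, 115682942 to 115707794), whose protein is a transcription factor of sinusoidal endothelium and of Kupffer cells, resembled Cdh5. It had 1164, 1184 and 1133 normalised reads in HP1ag_KO livers, 1390.4 in the HP1ab_KO liver, 1799.9 and 1575 in HP1a_KO livers and 1311, 1194 and 1267 in WT livers. The order of groups was that of Cdh5: HP1a_KO highest, then the HP1ab_KO liver, then WT, then HP1ag_KO, and here the HP1ag_KO values lay below all WT values. This was the only member of the 10 whose HP1ag_KO and WT livers did not overlap, against 13.5% of all genes tested. Maf was 1.34 times WT in HP1a_KO, 0.42 ± 0.10 SE on the log2 scale (limma adjusted p = 0.397, DESeq2 adjusted p = 0.0632), and -0.12 ± 0.087 SE in HP1ag_KO (limma adjusted p = 0.781). HP1ag_KO stood at 0.689 of HP1a_KO, -0.54 ± 0.10 SE on the log2 scale. DESeq2 called this difference (adjusted p = 0.00248) and limma did not (adjusted p = 0.127). Cdh5 and Maf had their highest value in the same library, HP1a_KO replicate 1, and their lowest in the same library, HP1ag_KO replicate 3. The HP1ag_KO and HP1a_KO ranges of both genes do not meet.

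Gna14 (ENSMUSG00000024697, chromosome 19, 16435762 to 16610820), which couples receptors to phospholipase C, was the member with the widest differences. It had 54.7, 78.5 and 84.2 normalised reads in HP1ag_KO livers, 25.6 in the HP1ab_KO liver, 51.4 and 43.0 in HP1a_KO livers and 84.5, 109 and 76.8 in WT livers. The HP1ab_KO and both HP1a_KO livers lay below all WT livers, and 2 of 3 HP1ag_KO livers lay within the WT range. Gna14 was 0.295 of WT in the HP1ab_KO liver (-1.76 ± 0.33 SE on the log2 scale, DESeq2 adjusted p = 0.0736) and 0.534 of WT in HP1a_KO (-0.91 ± 0.26 SE, DESeq2 adjusted p = 0.235). It was 0.803 of WT in HP1ag_KO (-0.32 ± 0.23 SE, DESeq2 adjusted p = 0.961). The limma adjusted p of these 3 differences were 0.999, 0.432 and 0.777. Over all 6 HP1α-null livers the mean was 56.2 ± 22.0 (SD, n = 6), against 89.9 ± 16.6 in WT (SD, n = 3), -0.75 ± 0.20 SE on the log2 scale (limma adjusted p = 0.679, DESeq2 adjusted p = 0.231). That difference ran from -0.89 to -0.55 when 1 library at a time was left out. Its close relatives Gnaq, Gna11 and Gna15, named here for their kinship, had log2 differences of 0.14, -0.03 and 0.47 in HP1a_KO against WT (limma adjusted p = 0.676, 0.954 and 0.76).

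The secreted ligands come next. Wnt2 (ENSMUSG00000010797, chromosome 6, 17988940 to 18030585) had 171, 140.2 and 89.0 normalised reads in HP1ag_KO livers, 136 in the HP1ab_KO liver, 88.1 and 89.5 in HP1a_KO livers and 114, 176 and 157 in WT livers. Both HP1a_KO livers were at or near the lowest value, with 1 of the 3 HP1ag_KO livers beside them, and all WT livers were above the HP1a_KO pair. Wnt2 was 0.608 of WT in HP1a_KO (-0.72 ± 0.30 SE on the log2 scale, limma adjusted p = 0.476), with leave-one-out values of -0.90 to -0.59. In HP1ag_KO it was -0.19 ± 0.27 SE, with HP1ag_KO replicate 3 low, and 0.079 without that library (limma adjusted p = 0.89 with all libraries).

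Rspo3 (ENSMUSG00000019880, chromosome 10, 29452416 to 29535867), whose protein amplifies Wnt signals by removing the receptor ligases RNF43 and ZNRF3, had 205, 192 and 132 normalised reads in HP1ag_KO livers, 141 in the HP1ab_KO liver, 147 and 118 in HP1a_KO livers and 105, 192 and 184 in WT livers. The WT livers spanned the lowest value of all 9 and values near the top, and every other group lay within or close to that span. The log2 differences from WT were 0.16 ± 0.27 SE in HP1ag_KO, -0.13 ± 0.39 SE in HP1ab_KO and -0.23 ± 0.30 SE in HP1a_KO (limma adjusted p = 0.907, 0.999 and 0.802). Within HP1ag_KO, replicate 3 was lowest for Wnt2 and for Rspo3 alike.

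Bmp2 (ENSMUSG00000027358, chromosome 2, 133552159 to 133562885) had 669.9, 589 and 484 normalised reads in HP1ag_KO livers, 635 in the HP1ab_KO liver, 759.6 and 754 in HP1a_KO livers and 801, 556 and 648 in WT livers. The HP1a_KO pair agreed closely and lay above all HP1ag_KO livers, and the WT livers reached from below the HP1ag_KO mean to the highest value of all 9. HP1ag_KO stood at 0.761 of HP1a_KO (-0.39 ± 0.18 SE on the log2 scale, limma adjusted p = 0.336). Against WT the differences were -0.20 ± 0.16 SE in HP1ag_KO and 0.20 ± 0.18 SE in HP1a_KO (limma adjusted p = 0.796 and 0.722).

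Where groups did not overlap, the members' counts can be set beside those of all genes. In HP1a_KO against WT, 4 members did not overlap (Cdh5 and Maf above, Gna14 and Wnt2 below), against 29.9% of all genes. In HP1ag_KO against HP1a_KO, 5 did not (Clec4g and Gna14 above, Cdh5, Maf and Bmp2 below), against 36.7%. The single HP1ab_KO liver lay outside the WT range for 5 members (Clec4g, Cdh5, Maf and Kdr above, Gna14 below), against 47.5%. Over all HP1α-null livers against WT it was 0 members, against 3.14%. With 10 members, these shares are close to the background.

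Other genes of sinusoidal endothelium (18 tested) were likewise spread around 0 in HP1ag_KO and HP1a_KO. Compared with WT, 13 were higher by any amount and 5 lower in the single HP1ab_KO liver (median 0.16). In HP1ag_KO against WT 9 were higher and 9 lower by any amount (median -0.00333), and in HP1a_KO 7 were higher and 11 lower (median -0.07). limma called 0 in each, with 1 and 1 at an unadjusted p under 0.05, and DESeq2 called 0. Dnase1l3, a DNase that clears DNA from blood, had 597, 579.9 and 527 in HP1ag_KO livers, 1166 in the HP1ab_KO liver and 1493 and 1391 in HP1a_KO livers, against 1473, 583 and 962 in WT livers. Its HP1ag_KO livers lay below both HP1a_KO livers, a log2 difference of -1.34 ± 0.32 SE, which DESeq2 called (adjusted p = 0.00434) and limma did not (adjusted p = 0.141). The clotting factor gene F8 went the other way, at 2631 ± 149 in HP1ag_KO (SD, n = 3) and 1884 ± 123 in HP1a_KO (SD, n = 2), a difference of 0.48 ± 0.13 SE (DESeq2 adjusted p = 0.0468, limma adjusted p = 0.157). Gpr182, an endothelial chemokine-binding receptor, was at 689 ± 16.2 in HP1a_KO and 565 ± 25.1 in WT (0.29 ± 0.11 SE, limma adjusted p = 0.471).

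Endothelial genes of all vessels (27 tested) had medians of 0.034 in HP1ag_KO, 0.012 in HP1a_KO and 0.12 in the single HP1ab_KO liver against WT. In that HP1ab_KO liver 21 were higher by any amount and 6 lower. In HP1ag_KO 16 were higher and 11 lower by any amount, and in HP1a_KO 14 and 13. limma and DESeq2 called 0, with 2 at an unadjusted limma p under 0.05 in each, all lower. Eng, the TGF-β co-receptor endoglin, had 1033, 1135 and 1013 in HP1ag_KO livers, 1417 in the HP1ab_KO liver and 1813 and 1559 in HP1a_KO livers, against 1767, 1250.4 and 1309 in WT livers. The HP1ag_KO livers lay below all others, and their difference from HP1a_KO of -0.67 ± 0.16 SE was called by DESeq2 (adjusted p = 0.023) and not by limma (adjusted p = 0.142). Egfl7, a secreted endothelial matrix protein, was higher in HP1ag_KO than in HP1a_KO, at 912 ± 90.0 (SD, n = 3) and 607 ± 102 (SD, n = 2), 0.59 ± 0.16 SE on the log2 scale (DESeq2 adjusted p = 0.0434, limma adjusted p = 0.155). The summed value of this list was 16405 to 19328 in HP1ag_KO livers, 19225 in the HP1ab_KO liver and 16556 to 18969 in HP1a_KO livers, against 16999.8 to 19814 in WT livers, and the ranges overlap.

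Genes that separate kinds of endothelium were examined beside the members. Of 5 tested activation genes (of 6 listed), 4 were higher in HP1a_KO by any amount (median 0.61) and 4 in HP1ag_KO (median 0.20), and limma called 0 in both, with 2 and 0 at an unadjusted p under 0.05. Vcam1, an adhesion molecule for leukocytes, was at 1438 and 1167 in HP1a_KO livers, against 846, 647 and 549.7 in WT livers, which DESeq2 called (0.95 ± 0.24 SE, adjusted p = 0.0478, limma adjusted p = 0.397). In the single HP1ab_KO liver the log2 difference of Vcam1 from WT was 0.94, and 4 of the 5 activation genes were higher by any amount (median 0.61). Icam1 was at 583 and 440.5 in HP1a_KO livers, against 267, 400.0 and 318 in WT livers (0.64 ± 0.28 SE, limma adjusted p = 0.491). Of 6 tested genes of continuous capillaries (of 8), 2 were higher and 4 lower in HP1a_KO by any amount (median -0.17). In HP1ag_KO 4 were higher and 2 lower (median 0.096), and limma called 0 in both. Ly6a was lower in HP1a_KO at 121 and 156, against 247, 297 and 312 in WT livers, which DESeq2 called (-1.04 ± 0.22 SE, adjusted p = 0.0276, limma adjusted p = 0.397). Plvap, the diaphragm protein of capillary pores, was at 993 and 1018 in HP1a_KO livers, against 744, 819 and 752 in WT livers (0.38 ± 0.13 SE, limma adjusted p = 0.457). The 8 central vein genes had medians of -0.10 in HP1ag_KO and -0.077 in HP1a_KO, and the 9 tested of 10 periportal and arterial genes 0.031 and -0.09, with 0 called by limma or DESeq2 against WT and 0, 0, 1 and 1 at an unadjusted limma p under 0.05. Ntn4, a netrin of the periportal list, was at 298, 348 and 252 in HP1ag_KO livers, against 199, 201 and 201 in WT livers (0.56 ± 0.14 SE, DESeq2 adjusted p = 0.0971, limma adjusted p = 0.459).

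Markers of Kupffer, stellate and erythroid cells mostly stood higher than WT in the group where Cdh5 and Maf were high. Kupffer cell markers were higher by any amount in 14 of 16 in HP1ag_KO (median 0.21), 15 of 16 in HP1ab_KO (median 0.53) and 16 of 16 in HP1a_KO (median 0.55). Their summed value was 22603 to 31057 in HP1ag_KO livers, 34395 in the HP1ab_KO liver and 32550.2 to 36067 in HP1a_KO livers, against 22048 to 25732 in WT livers. limma called 0 of them in HP1ag_KO and HP1a_KO against WT. At an unadjusted limma p under 0.05 there were 1 and 11, against 7.58% and 10.1% of all genes. DESeq2 called Il18bp, Cd5l and Slc40a1 higher in HP1a_KO, against 0.643% of all genes called. Stellate cell markers were higher in 10 of 15 in HP1ag_KO and 14 of 15 in HP1a_KO (medians 0.081 and 0.18), with summed values of 19560.3 to 20851 in HP1ag_KO livers, 23015 in the HP1ab_KO liver and 23052 to 24743 in HP1a_KO livers, against 15246 to 21023 in WT livers. limma called 0 of them, with 1 and 4 at an unadjusted p under 0.05 in HP1ag_KO and HP1a_KO, against the same shares of all genes. DESeq2 called the collagen genes Col1a1 and Col1a2 higher in HP1a_KO. Col1a1 was at 1391 and 1045 in HP1a_KO livers, against 450.0, 569 and 296 in WT livers (a log2 difference of 1.51 ± 0.31 SE), with an adjusted p of 0.00274 by DESeq2 and 0.397 by limma. The defining Kupffer gene Clec4f was at 5009 ± 773 in HP1ag_KO, 5654 in HP1ab_KO, 4925 ± 739 in HP1a_KO and 4002 ± 708 in WT, and the stellate gene Lrat at 849 ± 121, 1147, 848 ± 29.3 and 1042 ± 252 in the same groups. The biliary gene Krt19 lay between 15.1 and 35.6 and the T cell gene Cd3e between 0.952 and 12.8. Erythroid markers, of which 7 were tested, were higher than WT by any amount in 0 of 7 in HP1ag_KO (median -0.39), 6 of 7 in HP1ab_KO (median 1.62) and 6 of 7 in HP1a_KO (median 0.82). limma and DESeq2 called 0 of them, with 1 in each group at an unadjusted limma p under 0.05. The summed value of the 8 in the table was 5151 to 8588 in HP1ag_KO livers, 18198 in the HP1ab_KO liver and 10377 to 12184 in HP1a_KO livers, against 6956 to 16708 in WT livers, and Epb4.2 was at 0 in HP1ag_KO replicate 1. In HP1ag_KO against HP1a_KO, where DESeq2 called Cdh5 and Maf, 15 of 16 Kupffer markers were lower (median -0.34), 11 of 15 stellate markers (median -0.10) and 7 of 7 erythroid markers (median -1.11). DESeq2 called 2, 1 and 0 of these lower, limma called 0, and 4, 4 and 1 were lower at an unadjusted limma p under 0.05. At that p 1 stellate marker was higher. Over all genes tested DESeq2 called 1.61% lower, and 1160 of 13845 were lower at that limma p. The part of Kupffer, stellate and erythroid cells in the values of Cdh5, Maf and Lyve1, and of the activation genes Vcam1 and Icam1, was not tested. Hepatocyte markers had medians of 0.04 in HP1ag_KO and 0.13 in HP1a_KO against WT. In HP1ag_KO against HP1a_KO, 6 of 10 were lower by any amount (median -0.17), and DESeq2 called 1 lower. Hnf4a was called higher by DESeq2 in HP1a_KO against WT (0.40 ± 0.11 SE, adjusted p = 0.0383, limma adjusted p = 0.426). Its log2 difference in HP1ag_KO against HP1a_KO was -0.27 (limma adjusted p = 0.284). In HP1a_KO, 7 of 10 hepatocyte, 5 of 6 tested cholangiocyte and 6 of 6 tested lymphocyte markers were also higher by any amount. In HP1ag_KO these counts were 5, 4 and 5.

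**Figure D4:**
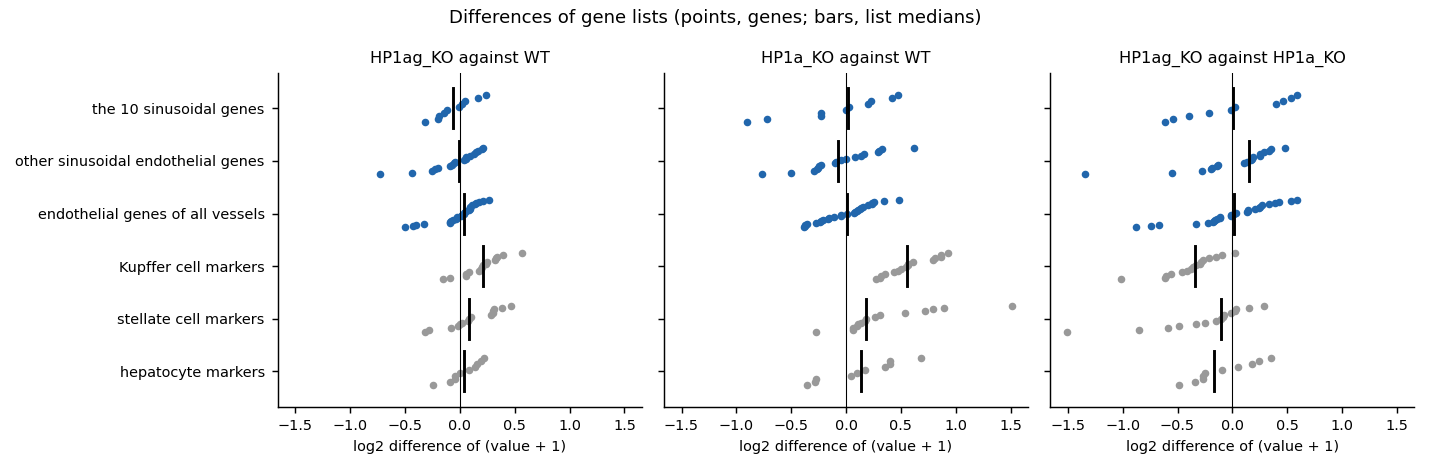
limma log2 differences of (value + 1) for single genes (points) and list medians (black bars) in 3 comparisons. The medians of the 3 endothelial lists (blue) lie between -0.07 and 0.15, and the Kupffer cell markers (grey) lie to the right in HP1a_KO against WT and to the left in HP1ag_KO against HP1a_KO.

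WNT2 and R-spondin 3 act on pericentral hepatocytes, so Wnt-dependent genes of these cells were set beside the ligands. In HP1ag_KO 14 of 18 were lower by any amount (median -0.32), in HP1ab_KO 15 of 18 (median -0.19) and in HP1a_KO 15 of 18 (median -0.34), and limma called 0 in each. At an unadjusted limma p under 0.05, 5, 3 and 4 were lower in these groups, and 0, 0 and 1 higher. Over all genes 3.74%, 1.65% and 4.66% were lower at that p. Glul, the glutamine synthetase of the last hepatocytes before the central vein, had 19836, 18367 and 15365 normalised reads in HP1ag_KO livers, 18050.1 in the HP1ab_KO liver, 16870.3 and 16226 in HP1a_KO livers and 25258, 25800.2 and 25773 in WT livers. Every mutant liver lay below every WT liver, and DESeq2 called Glul lower in HP1ag_KO (adjusted p = 0.011) and HP1a_KO (adjusted p = 0.00336), where limma did not (adjusted p = 0.4 and 0.397). The 3 livers with the lowest Glul, HP1ag_KO replicate 3 and both HP1a_KO livers, were also the 3 with the lowest Wnt2, while in HP1ag_KO replicates 1 and 2 and the HP1ab_KO liver Glul was below WT and Wnt2 within the WT range. Slc1a2, a glutamate transporter of the same hepatocytes, was at 3549.8, 3491 and 2896 in HP1ag_KO livers, against 7049.6, 5688 and 4364 in WT livers, which DESeq2 called (-0.76 ± 0.17 SE, adjusted p = 0.0122, limma adjusted p = 0.411). Axin2, a direct β-catenin target, had 174, 174 and 147 normalised reads in HP1ag_KO livers, 104 in the HP1ab_KO liver, 147 and 147 in HP1a_KO livers and 94.3, 195 and 187 in WT livers, and the groups overlapped. Axin2 was lowest in WT replicate 1, the WT liver that was also lowest for Wnt2 and Rspo3. Glul was at 25258 in that liver, above every mutant liver. Both HP1a_KO livers were lower in Wnt2 than that liver, yet their Axin2 of 147 was above its 94.3. A link between the ligands and these genes was not tested.

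Receptors for these ligands were examined too. Of 13 tested of 14 Wnt and R-spondin receptor genes, 10 were lower in HP1ag_KO and 8 in HP1a_KO by any amount (medians -0.18 and -0.083). limma and DESeq2 called 0, with 1 and 1 at an unadjusted limma p under 0.05. Fzd4, a receptor expressed in endothelium, was at 422, 376 and 521 in HP1ag_KO livers, against 659, 666 and 596 in WT livers (-0.55 ± 0.13 SE, DESeq2 adjusted p = 0.0971, limma adjusted p = 0.447). Wnt9b, the other Wnt ligand of central vein endothelium, was at 36.5, 23.6 and 14.2 in HP1ag_KO livers, 22.4 in the HP1ab_KO liver and 14.7 and 22.4 in HP1a_KO livers, against 33.8, 35.2 and 26.2 in WT livers (limma adjusted p = 0.805, 0.999 and 0.55).

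BMP2 signals through SMAD proteins in hepatocytes and endothelium. BMP and SMAD target genes were higher by any amount in 10 of 10 in HP1ag_KO (median 0.27), 7 of 10 in HP1ab_KO (median 0.42) and 3 of 10 in HP1a_KO (median -0.22). limma called 0 in HP1ag_KO and HP1a_KO, with 2 and 1 at an unadjusted p under 0.05, against 7.58% and 10.1% of all genes. Atoh8, a SMAD target in hepatocytes and endothelium, had 408, 307 and 262 normalised reads in HP1ag_KO livers, 252 in the HP1ab_KO liver, 314 and 212 in HP1a_KO livers and 117, 142 and 161 in WT livers. All mutant livers lay above all WT livers, and DESeq2 called Atoh8 higher in HP1ag_KO (1.20 ± 0.22 SE, adjusted p = 0.000789, limma adjusted p = 0.291). Hepcidin genes varied widely between livers of a group. Hamp had 663, 2158 and 832 normalised reads in HP1ag_KO livers, 722 in the HP1ab_KO liver, 80.7 and 689.9 in HP1a_KO livers and 3089.9, 346 and 558 in WT livers, and its groups overlapped. Hamp2 was at 1290.5, 2919 and 619.8 in HP1ag_KO livers, against 339, 136 and 533 in WT livers (2.19 ± 0.64 SE, limma adjusted p = 0.569), though reads of Hamp and Hamp2 may be split between these near-identical genes. Bmp6, the other BMP ligand of sinusoidal endothelium, was at 74.1 ± 5.02 in HP1ag_KO (SD, n = 3) and 62.1 ± 2.20 in HP1a_KO (SD, n = 2), against 92.1 ± 33.1 in WT (SD, n = 3). Of the 8 BMP receptors and co-receptors, Hfe2, which encodes hemojuvelin, was lower in HP1a_KO at 895 and 662, against 1243, 1331 and 1358 in WT livers, which DESeq2 called (-0.77 ± 0.18 SE, adjusted p = 0.0478, limma adjusted p = 0.397).

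**Figure D5:**
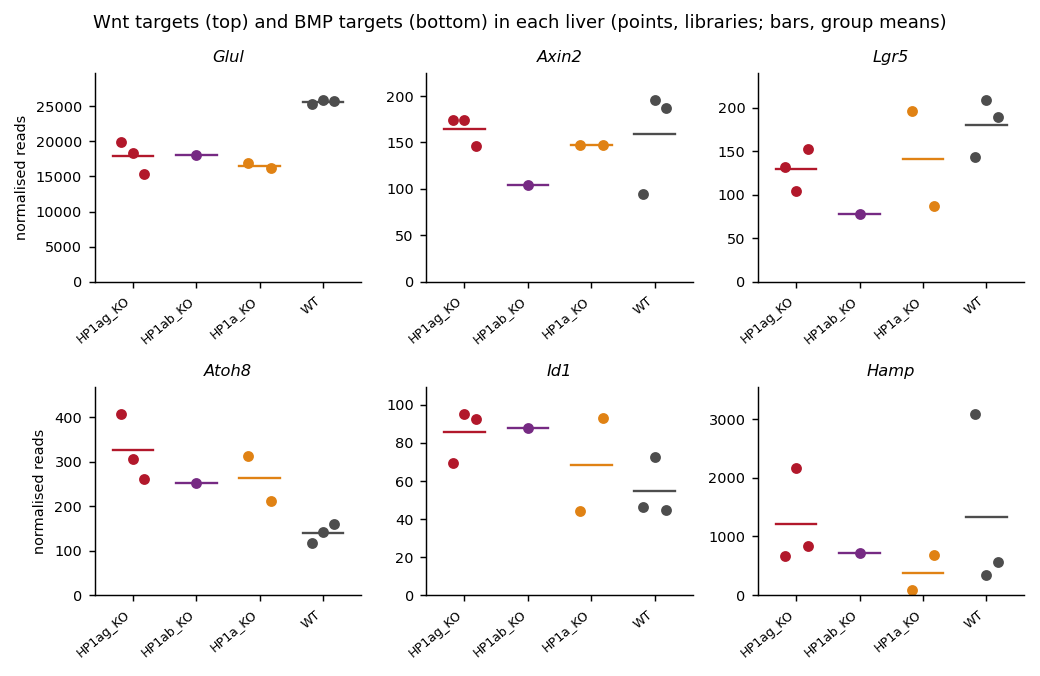
Normalised reads of 3 Wnt targets (Glul, Axin2, Lgr5) and 3 BMP targets (Atoh8, Id1, Hamp) in each liver, with points for libraries and bars for group means, groups from HP1ag_KO (left) to WT (right). Glul lies lower and Atoh8 higher in all 6 mutant livers than in the 3 WT livers, and Axin2 and Hamp overlap between groups.

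VEGF-A, the ligand of KDR, is made by hepatocytes. Vegfa was at 2533, 2870.1 and 3201 in HP1ag_KO livers, 2312 in the HP1ab_KO liver and 2130.1 and 1975 in HP1a_KO livers, against 2321, 2690.3 and 2905 in WT livers. Both HP1a_KO livers were below every other liver (-0.36 ± 0.13 SE against WT, limma adjusted p = 0.457, DESeq2 adjusted p = 0.411). Of 8 tested of 9 VEGF ligands and receptors other than Kdr, limma and DESeq2 called 0 in HP1ag_KO and HP1a_KO against WT, with 0 and 1 at an unadjusted limma p under 0.05. Among relatives of the members, Cd44, a hyaluronan receptor like LYVE1 that leukocytes carry, was at 716 and 607 in HP1a_KO livers, against 432, 297 and 353 in WT livers, which DESeq2 called (0.88 ± 0.19 SE, adjusted p = 0.0228, limma adjusted p = 0.397). In the single HP1ab_KO liver the log2 difference of Cd44 from WT was 0.70.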

How the data were processed

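Total liver RNA was depleted of ribosomal RNA and sequenced as stranded libraries, as the labels' protocols describe. Build mm10 and, as tools, HTSeq 0.5.4p3, DESeq2 1.0.19, TopHat2 2.0.10, Bowtie2 2.1.0 and CASAVA 1.8.2 appear in the submitters' processing notes. Which strand setting and annotation release were used is not given in these sources. The deposited signal values are the authors' read counts per gene, divided by 1 size factor per library: they are whole multiples of what 1 read is worth (0.799 to 1.83), and 100% gave whole reads within 0.1 read.

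Differences were tested with limma 3.58.1 (R 4.3.3, with trend) on log2(value + 1) for 13845 genes with a mean of at least 10, all 4 groups in 1 fit with 5 residual degrees of freedom, no covariates, and Benjamini-Hochberg adjusted p under 0.05. edgeR 4.0.16 (quasi-likelihood) and DESeq2 1.42.0 (Wald) were run on the recovered reads. The contrast of all HP1α-null livers weighted groups by livers. Other alternatives were pseudocounts of 0.5 and 5, no filter and a mean of 50, TMM and equal-total scaling, no trend, only the groups compared, and leaving out each library; leaving out the HP1ab_KO library was added after seeing the data. Scripts were tested on simulated data. There DESeq2 made 30 to 44 false calls per comparison, limma 7 to 12 and edgeR 7 to 14. In simulated HP1ag_KO against HP1a_KO, DESeq2 recovered 54% of true 2-fold changes and limma 39%. Differences called by DESeq2 alone are to be read with this excess of false calls. Replicates of a group differed by 49.0 to 125 times the chi-square of sampling noise per degree of freedom. Coordinates and exon lengths come from GENCODE M21 (GRCm38), in which 22257 of 22701 IDs were found.

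The members and lists were chosen with earlier results of these data known. Named genes are all members, up to 3 genes of each list with the smallest limma p in each comparison, Glul, Axin2, Hamp and defining markers (Clec4f, Lrat, Krt19, Alb and Cd3e), and the 10 genes most like the members, of which 1 is not reported here. Gnaq, Gna11 and Gna15 are named for kinship.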

Additional observations from a re-analysis of the deposited data

How the results depend on the processing

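Choices of processing changed how many genes were called more than they changed the members. Where limma and edgeR called 0 genes, DESeq2 called 99 in HP1ag_KO against WT, 11 in HP1ab_KO against WT, 89 in HP1a_KO against WT, 459 in HP1ag_KO against HP1a_KO and 46 over all HP1α-null livers against WT, and limma at an unadjusted p under 0.05 counted 1050, 512, 1404, 2240 and 874. A pseudocount of 5 gave 1 call in HP1a_KO against WT, no filter on low values gave 54 in HP1ab_KO against WT, and limma without the trend gave 7 in HP1ag_KO against HP1a_KO. With 1 library left out, the calls ran from 0 to 2 in HP1ag_KO against WT, 0 to 2 in HP1ab_KO against WT, 0 to 5 in HP1a_KO against WT, 0 to 5 in HP1ag_KO against HP1a_KO and 0 to 1 over all HP1α-null livers. The most calls came without HP1ag_KO replicate 1 in HP1ag_KO against WT, without HP1a_KO replicate 2 in both comparisons of HP1a_KO, and without WT replicate 3 in the other 2. The cause was not tested.

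Of 770 member values recomputed, 725 kept their direction and side of the threshold, 2 passed it (Cdh5 and Maf in HP1ag_KO against HP1a_KO by DESeq2) and 43, in 20 of 50 results, changed sign. None of those 20 had a log2 difference beyond 0.23 in either direction. Kdr became 0.00881 (TMM), 0.044 (equal totals) and 0.00658 (edgeR) in HP1ag_KO against WT. It became -0.041 (equal totals) and -0.00361 (DESeq2) in HP1a_KO against WT, where Stab2 became -0.013 (equal totals). In HP1ag_KO against HP1a_KO, Kdr became 0.000117 (TMM), 0.085 (equal totals), 0.000898 (edgeR) and 0.00148 (DESeq2), and the median of the 10 members 0.10 (equal totals). With 1 library left out, log2 differences in HP1ag_KO against WT ran as follows: Lyve1 -0.16 to 0.15, Wnt2 -0.39 to 0.079, Rspo3 -0.12 to 0.36 and Kdr -0.072 to 0.028. In HP1ab_KO against WT they ran Stab2 -0.00209 to 0.10, Wnt2 -0.29 to 0.021, Rspo3 -0.41 to 0.027 and Bmp2 -0.18 to 0.081. In HP1a_KO against WT they ran Stab2 -0.038 to 0.10, Lyve1 -0.25 to 0.70 and Kdr -0.062 to 0.038, and the members' median -0.14 to 0.062. In HP1ag_KO against HP1a_KO they ran Stab2 -0.048 to 0.087, Lyve1 -0.69 to 0.26 and Kdr -0.041 to 0.012, and the members' median -0.031 to 0.18. Over all HP1α-null livers they ran Stab2 -0.000635 to 0.10, Lyve1 -0.057 to 0.25, Clec4g -0.14 to 0.24, Rspo3 -0.30 to 0.14, Bmp2 -0.17 to 0.095 and Kdr -0.016 to 0.083. Both medians were farthest from 0 without HP1a_KO replicate 1, the shallowest library. Of 1102 list medians recomputed, 56 moved by more than the spread between replicates, taken as the SD of the median of the 10 members (0.095). Gna14, Wnt2 and Rspo3 rest on few reads per library. No paired analysis was possible because the groups share no replicate numbers in the labels.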

Other observations

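Genes whose pattern over the 9 livers was most like the mean of the 10 members were ranked by Pearson correlation of log2 values, as a description of livers that share libraries and depth. Among the 10 highest were Jam2 (0.94), Vwa7 (0.93), Tinagl1 (0.91), Il13ra2 (0.91), Prdm16 (0.90), Cib2 (0.90), Hace1 (0.89), Syt3 (0.87) and Ptgds (0.85). None of these is in the endothelial lists used here, although Jam2 encodes a junction protein of endothelium. The mean they follow spanned only -0.15 in HP1ag_KO replicate 3 to 0.12 in WT replicate 3 on the centred log2 scale, so the ranking rests on small differences between livers and on no group.

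Markers of lymphatic endothelium, which shares Lyve1, had a median log2 difference of -0.055 in HP1ag_KO and 0.20 in HP1a_KO against WT over 5 genes tested, and limma and DESeq2 called 0, with 0 and 0 at an unadjusted limma p under 0.05. In HP1ag_KO and HP1a_KO the medians were 0.14 and 0.22 for 6 cholangiocyte markers, and 0.13 and 0.16 for 6 lymphocyte markers.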
